A study of Caenorhabditis remanei with 48 samples.

Results

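The response of first-stage larvae to 30 °C was measured in the ancestor population (strain PX443) of a laboratory selection study in *Caenorhabditis remanei*, among offspring of parents kept at 20 °C. The libraries were chosen by their titles, as the 6 ancestor libraries of larvae at 30 °C and the 6 at 20 °C whose parents were not heated, 12 of the 48 libraries in the series. Embryos freed by bleaching spent 20 h in buffer without food at 30 or at 20 °C, hatched, and were passed through a 20-micron filter before about 100000 larvae were pooled for each replicate and their polyadenylated RNA was sequenced. Both groups share the strain, parents at 20 °C and the absence of food, and each replicate is a pool of whole larvae. Incubation began with embryos, so temperature also acted before hatching. Age and time without food since hatching are not known here. Any difference in them between the groups cannot be told apart from a response of the larvae to heat. The other groups compared here are ancestor larvae of parents kept at 30 °C (2 libraries at 30 °C and 2 at 20 °C) and larvae of unheated parents from a heat-selected and a control-selected population (12 libraries each). These groups, and larvae of heated parents from the 2 selected populations, were also fitted together with the 12 libraries. In RNA of whole larvae, fewer cells of a type and less RNA per cell cannot be told apart.

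*C. remanei* is a nematode with males and females that is a close relative of *C. elegans*. In *C. elegans*, heat makes proteins unfold, and the heat shock factor then switches on genes for chaperones, which refold or hold damaged proteins. Larvae of *C. elegans* that hatch without food stop developing in the first stage and live on their stores. The identifiers of these files pair with locus tags of another assembly but with no gene names, so no gene is given a function here and no markers of the stage could be examined. Identifiers are shortened to their CRE number, and gene models without a CRE number keep the prefix CRE_PX356.

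The libraries held 5144716 to 8466404 counts in genes at 30 °C and 4385337 to 8184471 at 20 °C, and 13460 of 24723 gene models had enough counts to be tested. The labels do not say whether replicates were separate cultures, so the p-values measure the spread between these libraries, which may be technical. The first principal component of log2 CPM (counts scaled to the size of the library; 53.3% of variance) set replicates 1 and 2 of both temperatures apart from replicates 3 to 6, and the second (21.5%) set the temperatures apart. On the first component replicate 5 at 20 °C lay in between, at −30.84. Replicates 1 and 2 were at −86.61 to −60.44 and the rest of replicates 3 to 6 at 11.3 to 75.93. At 30 °C the library most like each replicate was its consecutive partner (1 with 2, 3 with 4, 5 with 6) in 6 of 6 cases, and at 20 °C in 3 of 6. The labels put replicates 1, 2, 5 and 6 at 30 °C in batch A and 3 and 4 in batch B, but only 1 and 2 at 20 °C in batch A and 3 to 6 in batch B. Replicates 5 and 6 at 30 °C lay beside replicates 3 and 4 on the first component, against their batch label. The third component (7.95%) set these pairs apart, with replicates 3 and 4 at 29.65 and 45.11 and replicates 5 and 6 at −26.29 and −45.66. The other libraries lay between −13.24 and 10.29 on it.

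**Figure D1:**
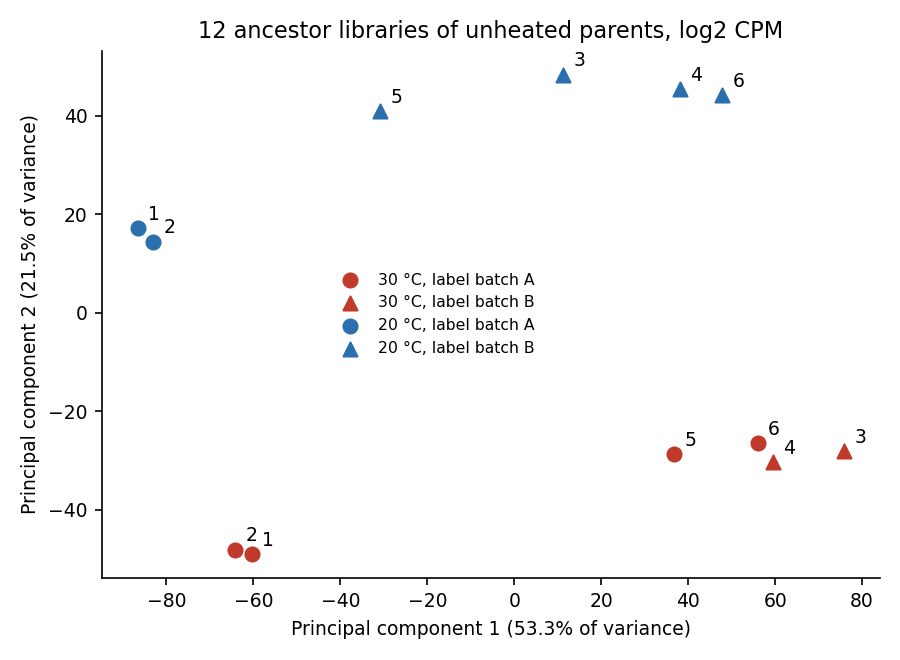
Principal components 1 (53.3% of variance, horizontal) and 2 (21.5%, vertical) of log2 CPM in the 12 ancestor libraries of unheated parents, coloured by larval temperature, with the marker shape giving the batch in the labels and the number the replicate. Replicates 1 and 2 stand to one side at both temperatures, and 30 and 20 °C separate along the vertical axis.

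Larvae at 30 °C differed from larvae at 20 °C in 5255 genes, 39.0% of those tested, in the quasi-likelihood test of edgeR, with p-values adjusted over the 13460 genes by the Benjamini-Hochberg method. Of these, 2851 (21.2%) were higher and 2404 (17.9%) lower at 30 °C. A fit of the 12 libraries alone called 3290 of the 11014 genes it tested (1682 raised, 1608 lowered). The raised genes reached the larger sizes. On the log2 scale 305 were raised by at least 2, against 145 lowered by as much. At a size of at least 3 there were 110 raised and 19 lowered genes, and at a size of at least 5 there were 17 raised and 2 lowered. With the batch taken from the replicate number (1 and 2 against 3 to 6) in place of the label, 191 were raised and 129 lowered by at least 2, and 70 raised and 25 lowered by at least 3. All 6 libraries at 30 °C lay above all 6 at 20 °C in 537 of the genes tested (3.99%) and below them in 494 (3.67%), together 7.66%. Scaling to total counts turned the balance, with 1701 raised and 3373 lowered, and shifted the median log2 change of all genes to −0.27.

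The raised genes also took up more of the libraries. They held 32.4 to 43.5% of the counts in genes at 30 °C (median 40.1%) and 20.1 to 30.0% at 20 °C (median 26.3%), with no overlap. Replicates 1 and 2 had the lowest shares at both temperatures, with 32.4 and 32.8% at 30 °C and 20.1 and 20.6% at 20 °C. The 110 genes raised by at least 3 on the log2 scale held 2.42 to 5.53% of counts at 30 °C and 0.183 to 0.235% at 20 °C. The 6 most raised genes with a locus tag among those named below made up 0.735 to 2.22% of counts at 30 °C and 0.0055 to 0.0601% at 20 °C. These shares describe genes that were chosen by the same counts and are no test. The lowered genes held 4.06 to 11.3% of counts at 30 °C and 7.4 to 20.0% at 20 °C, and replicates 1 and 2 had the highest shares.

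Among raised genes whose groups did not overlap, a set of 3 close neighbours on scaffold 209 stood near the top. CRE18318 had 269 to 1071 CPM (here scaled for library size with the TMM factor; median 543) at 30 °C and 1.17 to 11.7 CPM (median 2.45) at 20 °C. Its neighbour CRE18316 had 793 to 1632 CPM (median 1152) at 30 °C and 1.53 to 28.9 CPM (median 2.83) at 20 °C. CRE18322 was the most abundant of the 3, with 4323 to 11230 CPM (median 5828) at 30 °C and 29.7 to 139.8 CPM (median 36.8) at 20 °C. In each of them every library at 30 °C was far above every library at 20 °C, and replicates 1 and 2 were the highest at 20 °C. On the log2 scale CRE18318 rose by 7.09 (SE 0.88, adjusted p = 6.6e-08), CRE18316 by 7.06 (SE 0.92, adjusted p = 1.6e-07) and CRE18322 by 6.86 (SE 0.87, adjusted p = 1e-07). In the order of the other assembly (CRPX506) they lie within 4 consecutive loci, as GCK72_017213, GCK72_017211 and GCK72_017210.

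A further pair of neighbours, CRE27162 and CRE27471 on scaffold 57 (GCK72_018405 and GCK72_018404), rose to a similar degree. CRE27162 had 783 to 4191 CPM (median 3004) at 30 °C and 8.29 to 95.5 CPM (median 15.9) at 20 °C, a log2 change of 6.48 (SE 1.03, adjusted p = 5.6e-06). CRE27471 had 675 to 3124 CPM (median 1328) at 30 °C and 8.14 to 42.5 CPM (median 21.9) at 20 °C, a log2 change of 6.2 (SE 0.92, adjusted p = 1.9e-06). CRE01029 on scaffold 78 completes the 6 named genes with a locus tag and a log2 change over 6, with 1863 to 6100 CPM (median 5262) at 30 °C and 14.6 to 109.6 CPM (median 22.2) at 20 °C. Its log2 change was 6.89 (SE 0.97, adjusted p = 7.5e-07). For CRE01029 replicate 6 was the lowest library at 30 °C and replicate 2 the highest at 20 °C, and the gap between the groups was still wide.

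Models with no locus tag held 2 further genes of this size. CRE_PX356_1986 on scaffold 127 varied widely between libraries. At 30 °C its values in replicates 1 to 6 were 4001, 3590, 15690, 12490, 2662 and 1592 CPM, and at 20 °C they were 37.6, 63.8, 8.61, 12.2, 4.88 and 7.52 CPM. It was thus highest in replicates 3 and 4 at 30 °C and in replicates 1 and 2 at 20 °C, and its log2 change was 6.17 in replicates 1 and 2 and 9.94 in replicates 3 to 6. CRE26773 on linkage group 4 was at 0 to 0.435 CPM at 20 °C, at most a few counts in a library, and at 23.3 to 81.0 CPM (median 53.2) at 30 °C, so that its fitted log2 change of 7.81 (SE 0.93, adjusted p = 3.3e-08) rests on few counts in the cooler larvae.

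The other raised genes named by the ranking changed less, at a wide range of levels. CRE20712 on scaffold 28 had 79.6 to 185 CPM (median 158) at 30 °C and 3.34 to 10.6 CPM (median 6.72) at 20 °C, with a log2 change of 4.35 (SE 0.59, adjusted p = 3.9e-07). CRE01964 on scaffold 32 had 588 to 2011 CPM (median 1915) at 30 °C and 65.7 to 171 CPM (median 126) at 20 °C, with a log2 change of 4.01 (SE 0.39, adjusted p = 4.2e-10). CRE18121 on linkage group 9 had 40.0 to 143 CPM (median 103) at 30 °C and 3.09 to 11.3 CPM (median 7.36) at 20 °C, with a log2 change of 4.13 (SE 0.44, adjusted p = 2.1e-09). In all 3 the lowest library at 30 °C exceeded the highest at 20 °C by over 3-fold. CRE09421 (log2 change 3.72) and CRE00152 (3.44) were scarcer, at medians of 17.7 and 12.3 CPM at 30 °C and 1.35 and 1.59 CPM at 20 °C. CRE00198 on linkage group 1 was the third by level at 30 °C among raised genes with a locus tag and no overlap, after CRE18322 and CRE01029, with 1343 to 5433 CPM (median 4344) at 30 °C and 196 to 830.2 CPM (median 435) at 20 °C, and its log2 change was 3.42.

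CRE11034 on linkage group 4 differed in level between the replicates and was higher at 30 °C in both replicate sets. At 30 °C replicates 1 to 6 had 32.8, 31.6, 386, 218, 125 and 126 CPM, and at 20 °C they had 0.864, 1.48, 5.89, 8.07, 4.49 and 14.0 CPM. Both temperatures were lower in replicates 1 and 2, and the log2 change was 4.66 in replicates 1 and 2 and 4.72 in replicates 3 to 6. The difference of 0.06 between the sets had an SE of 1.13, so it does not show that the responses were alike. With the batches of the labels the fitted log2 change was 5.51 (SE 0.43, adjusted p = 7.9e-13), larger than in either set, and with the batch from the replicate number it was 4.72 (SE 0.36, adjusted p = 2.5e-13).

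**Figure D2:**
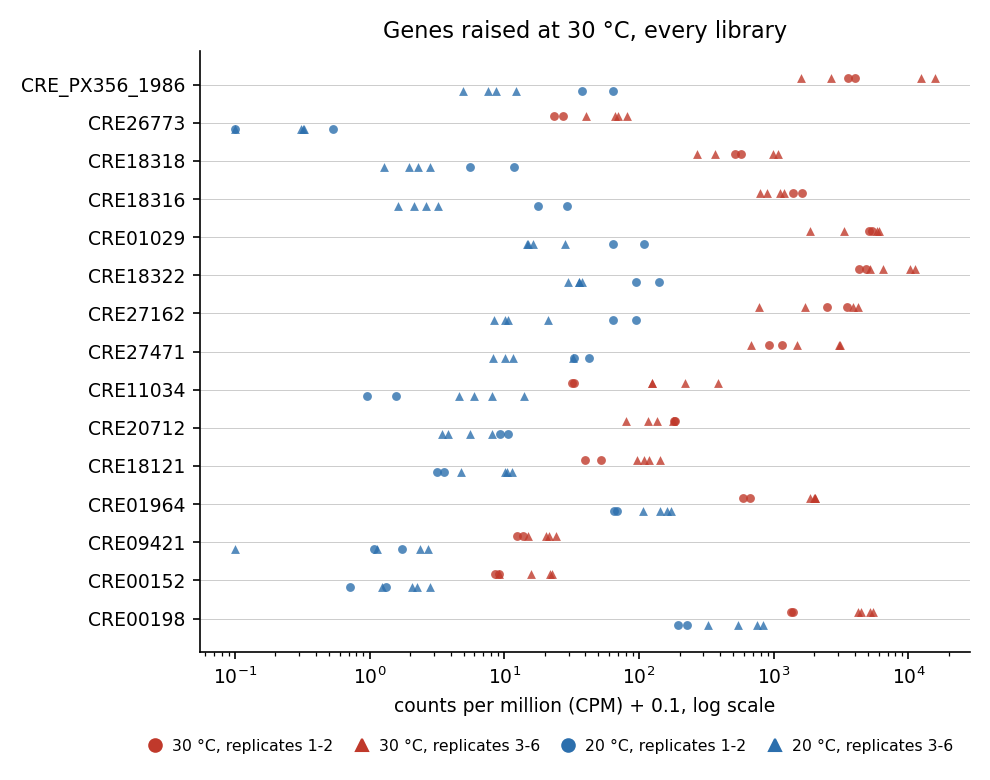
Level of the raised genes named by the ranking, in CPM plus 0.1 on a log scale (horizontal), with 1 row per gene, 1 point per library, colour giving the larval temperature and marker shape the replicate set. Every point at 30 °C lies to the right of every point at 20 °C in each row, and in CRE18318, CRE18316, CRE18322, CRE01029 and CRE27162 the 20 °C points of replicates 1 and 2 lie to the right of those of replicates 3 to 6.

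Most of the genes that fell furthest were of low to middling abundance, with CRE18513 the exception. CRE13477 on linkage group 4 had 1.36 to 3.13 CPM (median 2.36) at 30 °C and 33.5 to 59.7 CPM (median 52.9) at 20 °C, and its log2 change was −4.24 (SE 0.22, adjusted p = 8.5e-19). CRE19026 on scaffold 11b was listed at 0 in replicates 3 and 4 at 30 °C and was otherwise at 0.905 to 2.05 CPM there. At 20 °C it had 49.0 and 41.7 CPM in replicates 1 and 2 and 5.67 to 7.52 CPM in replicates 3 to 6. The groups did not overlap in either gene. CRE19026 had a log2 change of −5.06 (SE 0.32, adjusted p = 1.4e-15) with the batches of the labels and −4.23 (SE 0.36, adjusted p = 4.7e-12) with the batch from the replicate number, and −4.82 and −3.44 in replicates 1 and 2 and in replicates 3 to 6.

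CRE18513 and CRE18856 on scaffold 208, adjacent in the other assembly (GCK72_019188 and GCK72_019187), fell together but at very different levels. CRE18513 had 80.1 to 511 CPM (median 200.1) at 30 °C and 926 to 3846 CPM (median 1434) at 20 °C, with a log2 change of −3.73 (SE 0.39, adjusted p = 2e-09), which was −3.12 with the batch from the replicate number. CRE18856 had 1.81 to 7.53 CPM (median 4.32) at 30 °C and 35.9 to 75.3 CPM (median 49.0) at 20 °C, with a log2 change of −3.66 (SE 0.38, adjusted p = 1.8e-09). In CRE18513 replicates 1 and 2 were the highest at both temperatures, and in CRE18856 at 20 °C. The log2 change was similar in replicates 1 and 2 and in replicates 3 to 6 for both genes, at −3.08 and −3.19 in CRE18513 and −3.65 and −3.54 in CRE18856.

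CRE08815 on scaffold 98 varied little between libraries, with 2.48 to 3.64 CPM (median 2.75) at 30 °C and 19.0 to 24.6 CPM (median 23.8) at 20 °C. Its log2 change of −2.96 (SE 0.20, adjusted p = 1.2e-14) was −2.97 in replicates 1 and 2 and −2.99 in replicates 3 to 6. CRE09281 on scaffold 252 had 15.4 to 29.6 CPM (median 24.5) at 30 °C and 146 to 281 CPM (median 211) at 20 °C, with a log2 change of −2.99 (SE 0.27, adjusted p = 5.8e-11). CRE21032 on linkage group 4, a model with no locus tag, had 17.7 to 26.2 CPM (median 23.5) at 30 °C and 221 to 335 CPM (median 246) at 20 °C, with a log2 change of −3.46 (SE 0.26, adjusted p = 2.1e-13). In each of these genes the replicates of a temperature lay close together beside the gap between the temperatures. CRE10669 (−3.18), CRE16493 (−3.15), CRE10891 (−2.98), CRE23687 (−3.43), CRE30999 (−3.04), CRE18555 (−2.87) and CRE03133 (−3.50) also fell, and the last 4 of them had medians under 1 CPM at 30 °C.

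CRE18513 was also among the 3 most abundant lowered genes named by level, and the other two fell less. CRE27021 on scaffold 33 had 2017 to 3391 CPM (median 2598) at 30 °C and 6127 to 8373 CPM (median 6966) at 20 °C, with a log2 change of −1.59 (SE 0.29, adjusted p = 4.4e-05). CRE02248 on linkage group 2 had 1299 to 1824 CPM (median 1526) at 30 °C and 1927 to 3047 CPM (median 2644) at 20 °C, with a log2 change of −0.80 (SE 0.18, adjusted p = 0.00046). In CRE02248 the highest library at 30 °C was just below the lowest at 20 °C, and its call was lost in label batch A alone (adjusted p = 0.19), in batch B alone (adjusted p = 0.099) and with consecutive replicates summed (adjusted p = 0.052).

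**Figure D3:**
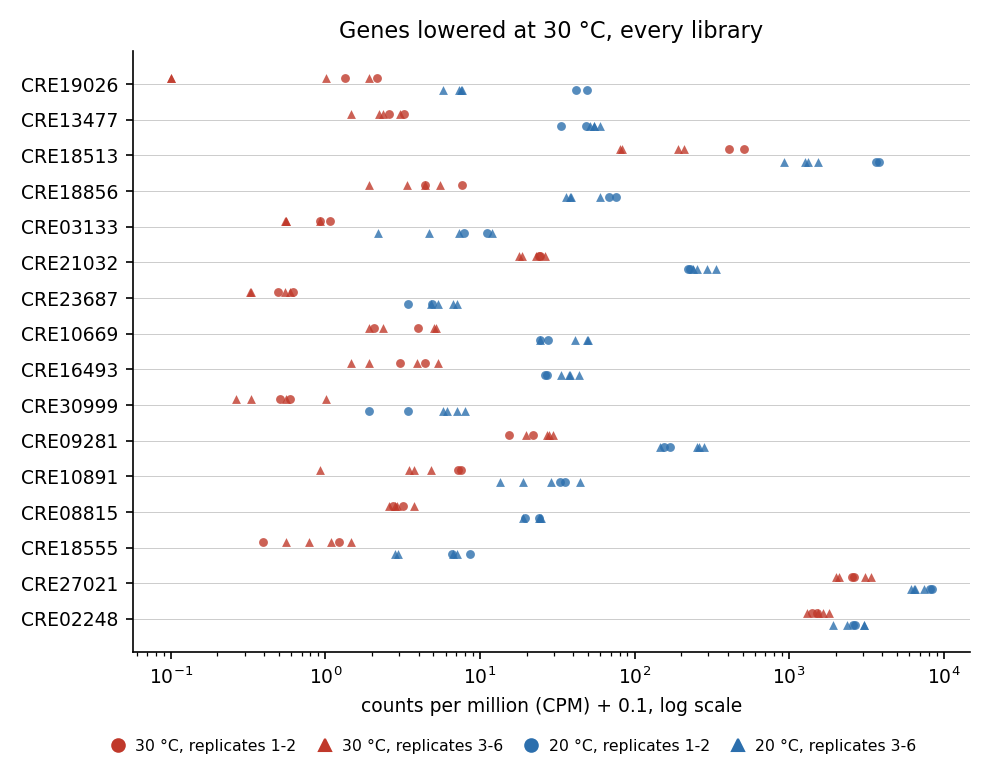
Level of the lowered genes named by the ranking, in CPM plus 0.1 on a log scale (horizontal), with 1 row per gene, 1 point per library, colour giving the larval temperature and marker shape the replicate set. Every point at 30 °C lies to the left of every point at 20 °C in each row, and the 20 °C points of CRE19026 fall into 41.7 to 49.0 CPM in replicates 1 and 2 and 5.67 to 7.52 CPM in replicates 3 to 6.

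The named genes were chosen among those whose groups did not overlap, and many called genes did overlap. Of the 2851 raised genes, 528 had all 6 libraries at 30 °C above every library at 20 °C, 862 had 4, and 550 had 2. In 331 raised genes replicates 3 and 4 were the only libraries at 30 °C above every library at 20 °C, while the same held of replicates 1 and 2 alone in 33 genes and of replicates 5 and 6 alone in 48. Of the 2404 lowered genes, 152 had only replicates 3 and 4 below every library at 20 °C. Only replicates 1 and 2 were below in 8 lowered genes, and only replicates 5 and 6 in 30. The shares of such genes over all genes tested are not given here, so these counts are a description only. Among the 110 genes raised by at least 3 on the log2 scale, 48 had all 6 libraries beyond the cooler ones and 32 had only replicates 3 and 4. Of the 19 genes lowered by as much, 17 had all 6 libraries below the cooler ones. Without replicates 3 and 4 at 30 °C, 69 of the 110 genes had enough counts to be tested, 62 were called raised and 47 still changed by at least 3 (55 and 39 with the batch from the replicate number), while 3682 genes were called in all.

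The run of 5 raised neighbours from CRE01279 to CRE01329 (GCK72_015858 to GCK72_015862) showed this pattern plainly. CRE01279 had 18.2 and 24.8 CPM in replicates 3 and 4 at 30 °C, 0.308 to 1.81 CPM in the other 4 replicates at 30 °C and 0 to 0.907 CPM at 20 °C. CRE01277 had 11.5 and 20.3 CPM in replicates 3 and 4 at 30 °C, 0.455 to 1.74 CPM in the other 4 and 0 to 1.46 CPM at 20 °C. Outside replicates 3 and 4 the groups overlapped in CRE01277, although its fitted log2 change was 3.82 (SE 0.43, adjusted p = 1.3e-08). CRE27727 on scaffold 144 was similar at a higher level, with 170.8 and 171 CPM in replicates 3 and 4 at 30 °C, 4.10 to 20.2 CPM in the other 4 and 3.33 to 30.1 CPM at 20 °C. These genes were chosen after their values were seen.

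The replicates were then compared as 2 sets, 1 and 2 against 3 to 6, in a fit of the 12 libraries with 11014 genes. At 30 against 20 °C, 1130 genes (10.3%) were called in replicates 1 and 2 and 3377 (30.7%) in replicates 3 to 6, with 1 estimate of the spread for both. Fitted on their own, replicates 1 and 2 gave 6443 called genes and replicates 3 to 6 gave 2329, so the counts do not rank the sets. The 943 genes called in both sets were 83.5% of the calls in replicates 1 and 2 and 27.9% of those in replicates 3 to 6, and 940 of them had the same sign (476 raised, 464 lowered). Across all 11014 genes 78.2% had the same sign in both sets, and the log2 changes of the sets had a Pearson correlation of 0.765 and a Spearman correlation of 0.73 across genes, which are not independent replicates. Of the genes called over all libraries that were tested here, 4438 of 4587 (96.8%) had the same sign in both sets, and so did the 51 genes tested with a log2 change of 3 or more either way. A further 78 called genes of that size had too few counts for this fit. The called genes were chosen on the same libraries that make up the 2 sets, so their shared sign is a description only. Of the 15 named raised genes, 13 had a larger log2 change in replicates 3 to 6.

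**Figure D4:**
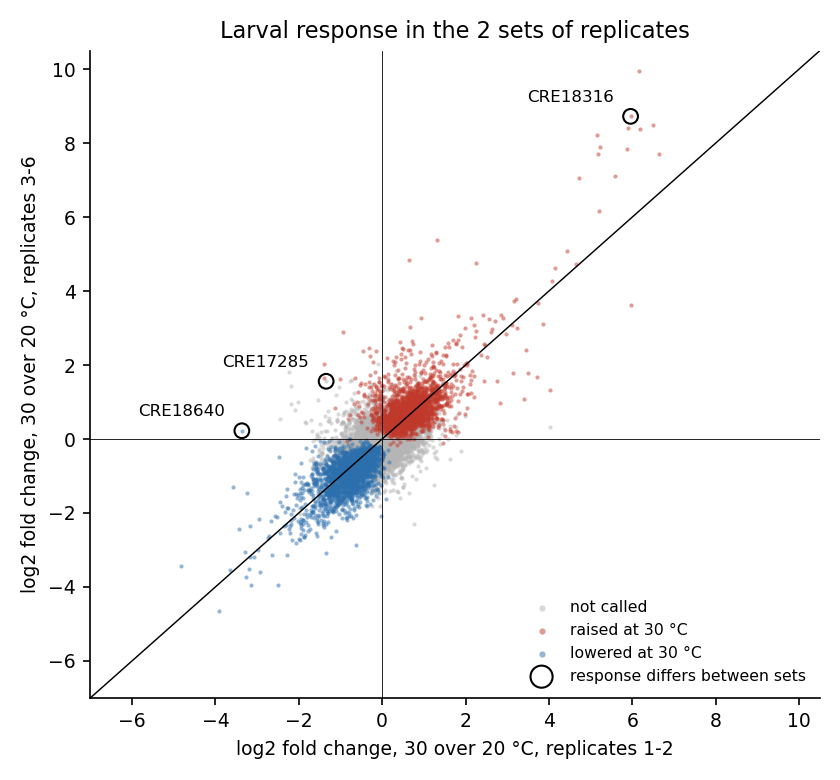
Log2 fold change at 30 over 20 °C in replicates 1 and 2 (horizontal) and in replicates 3 to 6 (vertical), 1 point per gene, for 11014 genes, coloured by the call over all libraries, with circles around the 3 genes whose response differed between the sets. Most points lie where both sets share a sign (78.2% of genes).

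The response differed between the sets in 3 genes (0.0272%) by the interaction term of the quasi-likelihood fit of edgeR (adjusted over the 11014 genes), and in 494 at an unadjusted p under 0.05. CRE18640 had 2.30 to 5.03 CPM in all 6 libraries at 30 °C, and at 20 °C it had 47.2 and 50.7 CPM in replicates 1 and 2 and 2.40 to 3.17 CPM in replicates 3 to 6. It was therefore lower at 30 °C only where the cooler larvae were high, and its log2 change was −3.37 in replicates 1 and 2 and 0.22 in replicates 3 to 6. CRE17285 had log2 changes of −1.34 and 1.56 in the 2 sets, and CRE18316 was raised in both, by 5.96 and 8.73. DESeq2 called 12 genes, limma-voom 5, and a minimum count of 50 left 0 of them called (296 at an unadjusted p under 0.05), so the count rests on few genes and few libraries.

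The choice of batch moved both the sizes and the calls. Only the batches of the labels called 1023 genes, and only the batch from the replicate number called 778. With the batch from the replicate number 5010 genes were called (2626 raised, 2384 lowered), 4232 of them among the 5255 called with the batches of the labels and 0 in the opposite direction. The numbers of genes with a log2 change of 1 or more were 779 raised and 999 lowered with the batch from the replicate number, and 1390 and 1234 with the batches of the labels. Among 4587 called genes, the fitted log2 change lay outside the values of both replicate sets in 63.9% with the batches of the labels and in 12.7% with the batch from the replicate number. The batch from the replicate number splits the libraries as these sets do, so its values lie between theirs largely by construction. These shares therefore do not show which batch is right. Called in both fits and with the same sign in both sets were 1953 raised and 1713 lowered genes. Within batch A of the labels alone 150 genes were called, and within batch B alone 1788. In batch A alone CRE01964 had a log2 change of 4.25 (adjusted p = 0.054), CRE00198 of 3.92 (0.077), CRE30999 of −2.63 (0.05), CRE27021 of −1.50 (0.09) and CRE02248 of −0.73 (0.19), so that these 5 calls were lost at similar sizes.

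Raised genes were more frequent among the abundant ones. Ordered by mean level into 4 classes of nearly equal size, 12.9, 15.5, 25.1 and 31.3% of the genes were raised from the lowest class to the highest, and 15.4, 20.8, 20.9 and 14.3% were lowered. Counts limit the calls in the lowest class, so these shares also follow depth. The 1593 tested models without a CRE number had 22.2% raised and 10.9% lowered, against 21.1 and 18.8% of the 11867 models with one. With the batch from the replicate number the models without a CRE number had 16.6% raised and 11.4% lowered.

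By position, the 4 linkage groups with the smallest shares of lowered genes, among the larger 11 in the authors' assembly, also had more raised genes than the 21.2% over all genes (17.9% were lowered). Linkage groups 3, 6 and 11 (165, 240 and 160 tested genes) had 37.6, 37.1 and 35.0% of their genes raised and 5.46, 6.25 and 5.63% lowered, and linkage group 7 (130 genes) had 27.7% raised and 5.39% lowered. Linkage group 1 (2067 genes) had 14.5% raised and 21.9% lowered. With the batch from the replicate number the raised shares were 29.1, 30.8 and 29.4% in linkage groups 3, 6 and 11, 18.5% in linkage group 7 and 16% in linkage group 1, against 19.5% over all genes. The median log2 change was 0.25 and 0.30 in linkage group 6 and 0.18 and 0.23 in linkage group 11 (replicates 1 and 2, then 3 to 6), and 0.07 and 0.20 in linkage group 3. In linkage group 7 it was −0.05 in replicates 1 and 2 and 0.20 in replicates 3 to 6. These groups were picked after their shares were seen, and their shares were not tested.

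Immediate neighbours of called genes were called in the same direction more often than paired genes in general. Of the tested genes, 10457 paired with a locus tag of the other assembly, which gave 5546 pairs of immediate neighbours, of which 398 were both raised, 291 both lowered and 257 opposite. A neighbour of a raised gene was raised in 34.1% of cases, against 20.7% of all paired genes, and a neighbour of a lowered gene was lowered in 28.6%, against 19.3%. With the batch from the replicate number these shares were 33 against 19.9% and 27.6 against 19.0%. Runs of at least 3 neighbours numbered 66 raised and 43 lowered. No number of runs to be met without such clustering is set beside these counts, so they are a description only. Whether the libraries kept strand is not given, and reads of overlapping or antisense genes cannot be told apart without it, which bears on close neighbours.

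The longest lowered run held 6 genes on linkage group 1, from CRE00110 to CRE00569 (GCK72_024689 to GCK72_024694). Their log2 changes ran from −1.62 in CRE00110 to −0.72 in CRE00569, and all 6 were negative in both replicate sets. CRE00571 in the middle of the run had 12 to 19.4 CPM at 30 °C and 24.8 to 38.4 CPM at 20 °C (log2 change −1.16, SE 0.16, adjusted p = 8.3e-07). CRE00569 had 13.3 to 17.6 CPM at 30 °C and 22.5 to 29.5 CPM at 20 °C. The groups did not overlap in these 2 genes and overlapped in the other 4. These genes were named after their values were seen.

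Some models were detected at a single temperature. A count was present in all 6 libraries at 30 °C and in none at 20 °C for 10 models, with 9 to 42 counts summed over the libraries at 30 °C, and the reverse held for 3 models, with 8 to 22 counts at 20 °C. A count of 0 over the 6 libraries allows a level of up to 0.0846 CPM at 20 °C for the 10 models and up to 0.0753 CPM at 30 °C for the 3 (3 counts over the group, counting error only). Of the 11263 models that were not tested, 3200 had no count in the 12 libraries and 1104 had over 20 counts at one of the temperatures.

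Reads set aside by the counting also differed. Reads on overlapping gene models were 4.46 ± 0.40% of reads at 30 °C and 3.02 ± 0.36% at 20 °C (SD, n = 6 each), with no overlap between the groups (exact permutation test over 924 regroupings, two-sided, p = 0.0022, adjusted p = 0.013 over 6 measures). Reads aligned to more than 1 place were 3.09 ± 0.38% at 30 °C and 2.34 ± 0.29% at 20 °C (adjusted p = 0.013 by the same exact test). Within replicates 1 and 2 both shares were higher in each library at 30 °C than in each at 20 °C, and within replicates 3 to 6 this held for overlapping models only. Reads outside genes were 14.1 ± 4.49% at 30 °C and 18.3 ± 3.83% at 20 °C (exact permutation adjusted p = 0.22). Within replicates 1 and 2 these were 8.03 and 11.2% at 30 °C and 12.9 and 16.3% at 20 °C, and within replicates 3 to 6 they overlapped, at 11.1 to 18.2% and 17.1 to 23.9%. Their part in the gene results was not tested.

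The named genes were mostly called in the same direction in the populations selected from this ancestor. All 15 named raised genes were also called raised in heat-selected larvae (10.7% of genes raised there) and in control-selected larvae (12.2%). Of the 16 named lowered genes, 16 were called lowered in heat-selected larvae (11.6%) and 15 in control-selected larvae (11.2%). The exception, CRE30999, was called raised in control-selected larvae, with a log2 change of 1.26 (adjusted p = 0.014) there and −3.04 in the ancestor. CRE18318 changed by 4.96 in heat-selected larvae and 6.50 in control-selected ones, and CRE_PX356_1986 by 5.81 in heat-selected larvae and 6.97 in control-selected ones. Differences between populations were not tested here.

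With parents kept at 30 °C, 13 of the 15 named raised genes were called raised (5.1% of genes raised there) and 11 of the 16 named lowered genes lowered (4.23%). The labels put all ancestor libraries of heated parents in batch A, while those of unheated parents are in batches A and B. Parental temperature and batch are thus partly confounded, and CPM values set against all unheated libraries are not adjusted for batch. The response of larvae of heated parents differed from that of larvae of unheated parents in 215 genes (1.6%) by the interaction in the quasi-likelihood fit of edgeR (adjusted over all genes tested), 60 of them among the raised and 73 among the lowered genes. With heated parents the log2 change was lower in 58 of the 60 raised genes and higher in 69 of the 73 lowered genes. These counts include changes that reversed in sign. CRE04165 changed by 2.62 with unheated and −2.22 with heated parents, and CRE18336 by −1.33 and 2.31. The raised and lowered genes were called on the same unheated libraries that enter this difference, so its direction among them is a description only. This count rests on single libraries. Without replicate 1 at 30 °C of heated parents, which had 41.1% of its reads outside genes, 2 genes were called, without replicate 2 at that temperature 461, and without replicate 1 or 2 at 20 °C 11 or 59.

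CRE18121 and CRE01964 were already high in the cooler larvae of heated parents. CRE18121 had 110.0 and 77.0 CPM at 30 °C and 68.9 and 86.8 CPM at 20 °C with heated parents, against 40.0 to 143 CPM at 30 °C and 3.09 to 11.3 CPM at 20 °C with unheated parents. CRE01964 had 937 and 1216 CPM at 30 °C and 923 and 989 CPM at 20 °C with heated parents, against 588 to 2011 CPM at 30 °C and 65.7 to 171 CPM at 20 °C with unheated parents. In both genes the groups of heated parents lay within the range of unheated larvae at 30 °C. The log2 response was 0.26 with heated parents and 4.13 with unheated parents in CRE18121 (difference −3.87, SE 0.77, adjusted p = 0.0047) and 0.17 against 4.01 in CRE01964 (difference −3.84, SE 0.72, adjusted p = 0.0035). Without replicate 1 at 30 °C of heated parents the differences were −4.14 and −3.66 and were no longer called (adjusted p = 0.12 and 0.13), and against replicates 1 and 2 of unheated parents only the adjusted p was 0.053 for both.

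CRE11034 had a smaller response as well, with 27.4 and 29.7 CPM in larvae of heated parents and 31.6 to 386 CPM in larvae of unheated parents, and at 20 °C it had 8.57 and 6.62 CPM with heated and 0.864 to 14.0 CPM with unheated parents. The unheated replicates 1 and 2 had 32.8 and 31.6 CPM at 30 °C and 0.864 and 1.48 CPM at 20 °C, so against them the 30 °C levels were close and the 20 °C levels of heated parents were higher. The difference was −3.60 (SE 0.75, adjusted p = 0.0066) and was not called against these replicates only (−2.76, adjusted p = 0.08) or without replicate 1 at 30 °C of heated parents (−3.54, adjusted p = 0.15). Of the 58 raised genes whose log2 change was lower with heated parents, 22 had both libraries of heated parents at 20 °C above every unheated library at 20 °C. In 33 of the 58, both libraries of heated parents at 30 °C lay below every unheated library at 30 °C. Over all 2851 raised genes these numbers were 313 and 593. None of the 6 genes with a locus tag raised by more than 6 on the log2 scale was called different with heated parents. CRE18318 changed by 5.82 with heated and 7.09 with unheated parents (difference −1.27, SE 1.38, adjusted p = 0.69) and CRE01029 by 7.35 and 6.89 (difference 0.46, SE 1.51, adjusted p = 0.92). With 2 libraries at each larval temperature of heated parents these errors are wide and do not show that the responses were alike.

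**Figure D5:**
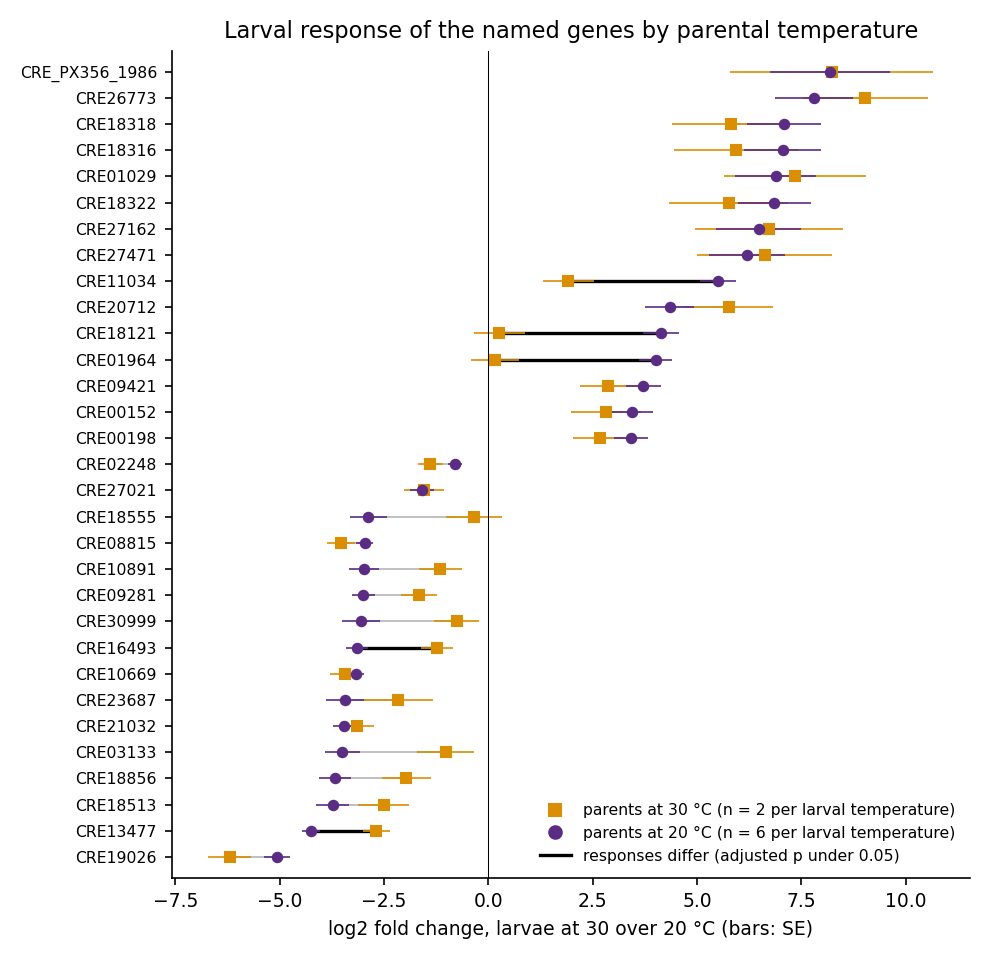
Log2 fold change at 30 over 20 °C (horizontal, bars are the SE of the fit) of each named gene with parents at 30 °C (squares, n = 2 per larval temperature) and with parents at 20 °C (circles, n = 6). CRE18121 and CRE01964 have squares at 0.26 and 0.17 and circles at 4.13 and 4.01, while in CRE01029 the square (7.35) and the circle (6.89) lie within their bars.

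The genes that differed most with heated parents in each direction were outside the ranking by response. CRE04165 and CRE00862 changed by −2.22 and −2.64 on the log2 scale with heated parents and rose with unheated parents (by 2.62 and 2.15), differences that were not called without replicate 1 at 30 °C of heated parents (adjusted p = 0.13 for both). Their rise with unheated parents was carried by replicates 3 to 6 (2.61 and 1.92), with log2 changes of 0.43 and 0.54 in replicates 1 and 2. CRE04165 had 235 and 144 CPM in replicates 3 and 4 at 30 °C and 5.03 and 4.89 CPM in replicates 1 and 2. Against replicates 1 and 2 of unheated parents only, the differences were −2.67 and −3.20 and were not called (adjusted p = 0.18 and 0.20). CRE28089 had 22.1 and 2.89 CPM at 30 °C and 0.184 and 0.262 CPM at 20 °C with heated parents, against 1.56 to 4.93 CPM at 30 °C and 0.696 to 30.4 CPM at 20 °C with unheated parents. CRE18336 had 72.8 and 8.29 CPM at 30 °C and 3.87 and 12 CPM at 20 °C with heated parents, against 2.30 to 17.7 CPM at 30 °C and 8.29 to 29.6 CPM at 20 °C with unheated parents. At 20 °C with unheated parents CRE28089 was low in replicates 1 and 2 (1.24 and 0.696 CPM) and at 17.2 to 30.4 CPM in replicates 3 to 6. In CRE28089 and CRE18336 replicate 1 was the higher of the heated-parent libraries at 30 °C and lay above every unheated library at 30 °C. Without it the differences were 4.23 and 1.39, against 6.26 and 3.65 with it, and were no longer called (adjusted p = 0.088 and 0.60).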

How the data were processed

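The authors deposited raw counts of reads for 24723 gene models, with 5 further categories for reads that were not counted, in a file for each library. Per the submitters' processing notes, GSNAP version 2013-03-31 and HTSeq were used; the genome build is not given in the sources used here. Reads in genes numbered 4385337 to 8466404 in the 12 libraries. The counts were analysed with edgeR 4.0.16 (R 4.3.3) after TMM scaling and filterByExpr at a minimum count of 10, in 1 quasi-likelihood fit of all 48 libraries with 12 groups and the label batch, with calls at p under 0.05 after Benjamini-Hochberg adjustment over 13460 genes. Replicate sets were compared in a fit of the 12 libraries. The script was tested on simulated data.

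The named genes were those called, whose mean log2 CPM reached 1, with no overlap between the groups. Of 487 such raised and 426 such lowered genes, the text names the 12 with a locus tag that changed most each way (the last had 3.44 and −2.87, the next 3.42 and −2.79), the 3 most abundant each way, 2 each way without a locus tag, and the 2 largest each way for the interactions (none was called lower between replicate sets). This leaves out 74 of the 129 genes that changed by at least 3, whose mean log2 CPM was under 1. The libraries, the genes and the lists were chosen with earlier results of these data known. Locus tags come from a RefSeq table of the assembly CRPX506, used for names and order only; 15243 models matched. Lists of genes by function, stage markers, protein families and promoters were not analysed here, since the identifiers pair with no names or sequences.

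Alternatives were DESeq2 1.42.0 (size factors and test), total counts, other filters, limma-voom (limma 3.58.1), other batch terms and library sets, 1 surrogate variable (sva 3.50.0), pairs summed, a fold threshold and leaving out each library. Omitting replicates 3 and 4 or 5 and 6 at 30 °C, alone or with the batch from the replicate number, and using only replicates 1 and 2 of unheated parents were added after the data were seen.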

Additional observations from a re-analysis of the deposited data

Results flagged for a closer look

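Of 74 groups of named genes examined for a library apart from the rest, 1 was flagged, where chance flags about 1 in 20 groups. CRE00862 had 5.85 CPM in replicate 6 at 20 °C, above the other 5 libraries at 20 °C.

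CRE18640 and CRE17285 were flagged because the response differed between replicates 3 to 6 and replicates 1 and 2, by 3.59 and 2.90 on the log2 scale. In CRE18640 the difference follows 2 libraries, replicates 1 and 2 at 20 °C, and its source was not tested.

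The response with heated parents minus that with unheated parents was flagged in 9 named genes. On the log2 scale it was −3.60 in CRE11034, −3.87 in CRE18121, −3.84 in CRE01964, −4.84 in CRE04165 and −4.79 in CRE00862. In CRE13477 and CRE16493, which fell less with heated parents, it was 1.56 and 1.92, and in CRE28089 and CRE18336 it was 6.26 and 3.65. None of the 9 was called without replicate 1 at 30 °C of heated parents (adjusted p of 0.088 to 0.60, edgeR).

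The mean share of reads on overlapping gene models, 4.46% at 30 °C, was flagged because it lies outside the gene counts and above the level at 20 °C.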

How the results depend on the processing

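The count of 5255 called genes was 2977 with no batch term, 3290 in a fit of the 12 libraries alone, 2329 in replicates 3 to 6 alone, 150 in label batch A alone, 1788 in label batch B alone, 2294 with consecutive replicates summed and 442 against a minimum log2 fold change of 1. It was 6443 in replicates 1 and 2 alone. Leaving out 1 library at a time gave 4011 to 5627. The 3 genes that differed between replicate sets were 1 with total counts, 12 with DESeq2, 5 with limma-voom and 0 at a minimum count of 50, and 1 to 6 on leaving out a library. The 215 genes that differed with heated parents were 434 with DESeq2, 46 in a fit of the 16 ancestor libraries, 104 with replicates 1 and 2 of unheated parents only, and 2 to 461 on leaving out a library. The cause was not tested. For the 31 named genes, 980 of 987 values kept their direction and call, 7 kept their direction and lost the call, and 0 reversed. These genes were chosen as called with no overlap between the groups, so the kept directions follow largely from that choice. They do not measure how stable the other calls are. The calls lost were CRE01964, CRE00198, CRE30999, CRE27021 and CRE02248 in label batch A alone, and CRE02248 in label batch B alone and with pairs summed. Same-numbered libraries of the 2 temperatures deviated together in 5 of 6 pairs (correlations of 0.405 to 0.828) but not in replicate 5 (0.031). Libraries of different number within a replicate set also deviated together, except with replicate 5 of the cooler larvae. Their correlations were 0.81 and 0.826 in replicates 1 and 2 and 0.285 to 0.641 in replicates 3 to 6. The correlations thus did not single out the same number, and the numbers were not taken as pairs. A fit with the replicate number as a block called 4880 genes (2512 raised, 2368 lowered). Depth limits the calls of scarce genes, and 8063 models with a count were not tested.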
